A study of Mus musculus with 8 samples.

Results

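The arrays carried 14 probe sets for 10 mouse genes of DNA replication, out of 12488 probe sets and 8252 named genes. The genes were taken by name: Mcm2, Mcm3, Mcm4, Mcm5, Mcm6, Mcm7, Pcna, Tk1, Rrm1 and Rrm2. For 6 of them the array held 1 probe set, and for 4 (Mcm3, Mcm5, Tk1 and Rrm1) it held 2. Every mouse in the study had both olfactory bulbs removed, which deprives olfactory sensory neurons of their target so that they die and are replaced, and total RNA of the olfactory mucosa was hybridised to single-colour oligonucleotide arrays. The 8 arrays fell into 4 groups of 2: C57BL/6 mice injected with carrier, Ccl3-/- mice injected with carrier, C57BL/6 mice injected with CCL3, and Ccl3-/- mice injected with CCL3. CCL3 is a chemokine that draws macrophages, and the series title states that the study concerned macrophage recruitment after target ablation. The labels leave out age, dose, time since surgery, the background of the Ccl3-/- line, any pooling of animals and whether replicates were separate animals, so the spread between replicates may be technical in part.

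Before a cell can copy its DNA, a ring of the MCM proteins Mcm2 to Mcm7 is loaded on each origin, and in S phase it unwinds the double helix. Pcna is the sliding clamp that holds DNA polymerase on its template, Rrm1 and Rrm2 are the large and small subunits of ribonucleotide reductase, which makes deoxyribonucleotides, and Tk1 phosphorylates thymidine for the same pool. The genes are classically switched on together by E2F transcription factors as a cell commits to division, and their RNA is widely used as a measure of proliferation. In the olfactory epithelium the dividing cells are mainly globose basal cells and neuronal precursors, which replace sensory neurons lost after bulbectomy. In whole mucosa, fewer dividing cells and less RNA per dividing cell cannot be told apart.

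RefSeq promoter sequence (build GRCm38.p6) was held for 9 of the 10 genes. The 250 bases before the start were searched on both strands for 4 E2F words of 8 letters (TTTCCCGC, TTTCGCGC, TTTGCCGC and TTTGGCGC) and for CCAAT, the word read by the factor NF-Y. The promoters of Mcm5, Mcm7, Rrm1 and Tk1 are printed because Rrm1, Tk1 and Mcm7 had the largest differences between the carrier groups and Mcm5 followed the other members most closely. They lie at chr8:75109259-75109508 (plus strand), chr5:138171884-138172133 (minus strand), chr7:102441445-102441694 (plus strand) and chr11:117826015-117826264 (minus strand). Each ends at the base before the start of its gene and is written 5′ to 3′ on the gene's strand, with matches in capitals. Mcm7 had 2 entries, and the one farther upstream is shown. The other held 0 E2F words and 1 CCAAT word.
Mcm5: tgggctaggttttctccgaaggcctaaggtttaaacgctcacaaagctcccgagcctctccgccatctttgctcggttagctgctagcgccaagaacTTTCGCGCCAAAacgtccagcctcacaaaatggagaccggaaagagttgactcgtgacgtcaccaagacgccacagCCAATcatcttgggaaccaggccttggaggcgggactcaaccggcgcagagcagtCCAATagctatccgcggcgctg
Mcm7: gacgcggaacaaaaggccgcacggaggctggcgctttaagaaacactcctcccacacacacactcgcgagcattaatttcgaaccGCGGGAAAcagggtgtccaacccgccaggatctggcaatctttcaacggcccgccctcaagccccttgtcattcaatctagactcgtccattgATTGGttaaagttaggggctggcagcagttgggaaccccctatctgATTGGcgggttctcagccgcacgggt
Rrm1: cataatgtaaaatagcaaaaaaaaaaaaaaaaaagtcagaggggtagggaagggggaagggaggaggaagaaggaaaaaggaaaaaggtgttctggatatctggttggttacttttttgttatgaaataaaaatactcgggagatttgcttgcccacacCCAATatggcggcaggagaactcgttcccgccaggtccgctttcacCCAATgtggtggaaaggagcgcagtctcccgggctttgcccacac
Tk1: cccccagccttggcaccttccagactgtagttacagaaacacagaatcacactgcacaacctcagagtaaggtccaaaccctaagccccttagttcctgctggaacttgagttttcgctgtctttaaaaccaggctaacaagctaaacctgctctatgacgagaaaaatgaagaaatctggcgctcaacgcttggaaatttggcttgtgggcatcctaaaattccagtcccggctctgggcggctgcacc
In Mcm5, an E2F word on each strand overlapped to give 1 run of capitals, and CCAAT occurred 2 times. Mcm7 held 1 E2F word and 2 CCAAT words on the opposite strand, Rrm1 held 2 CCAAT words, and Tk1 held neither. Among all the genes, 3 held an E2F word in at least 1 entry (Mcm5, Mcm6 and Mcm7), a word found in 1.86% of 32851 promoter entries. By the same count 8 genes held CCAAT, found in 33.8% of entries. A match is a string of letters and no evidence of binding.

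Arrays had median intensities of 581.4 to 660.3. The 3′ to 5′ ratio of the Gapdh control probe sets, a measure of RNA integrity, was 2.59 on C57BL/6 carrier replicate 1 and 0.755 to 1.31 on the other 7 arrays. For Actb it was 1.58 on that array and 1.61 to 2.17 on the others. Omp, the marker of mature olfactory neurons, read 4251.1 to 21778.7 and was thus present on every array. The probe set of Ccl3 read 159.4 to 386.5 on the 4 C57BL/6 arrays and 727.3 to 812.2 on the 4 arrays labelled Ccl3-/-, which is against the label. The extent of the deletion and the position of the probe set relative to it are unknown here, so the groups are named by their labels.

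The 6 MCM genes form 1 ring in the cell, but their probe sets did not follow 1 pattern across the arrays. Intensities are given for the brightest probe set of each gene, in the order C57BL/6 carrier, Ccl3-/- carrier, C57BL/6 CCL3 and Ccl3-/- CCL3, replicates 1 and 2 of each. Mcm7, a subunit of the catalytic core of the helicase, read 483.2 and 1132.0, then 1190.8 and 2393.6, then 1051.2 and 1327.0, and last 1590.4 and 1066.2. Its 2 Ccl3-/- carrier arrays lay above both C57BL/6 carrier arrays, and the CCL3 groups lay between the extremes. Its group means were 808 ± 459, 1792 ± 851, 1189 ± 195 and 1328 ± 371 (SD, n = 2 each).

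Mcm5, which with Mcm2 forms the gate through which the ring opens, read 1209.8 and 1892.2 in C57BL/6 carrier, 1640.4 and 3671.6 in Ccl3-/- carrier, 1861.1 and 1374.9 in C57BL/6 CCL3, and 1922.1 and 1383.3 in Ccl3-/- CCL3. The value of 3671.6, on Ccl3-/- carrier replicate 2, stood well above the next highest, 1922.1, and the carrier groups overlapped. Mcm3 read 646.5 and 1155.5, 779.9 and 1571.6, 900.4 and 919.9, and 811.9 and 795.4 in the same order. It was again highest on Ccl3-/- carrier replicate 2 and lowest on C57BL/6 carrier replicate 1, while the replicates of both CCL3 groups nearly coincided.

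Mcm2 and Mcm4 had other profiles. Mcm2 read 978.8 and 704.8, 744.6 and 1112.1, 954.7 and 1116.3, and 1291.8 and 1063.4, so that it was highest in the Ccl3-/- CCL3 group and lowest on C57BL/6 carrier replicate 2. Mcm4, also of the catalytic core, read 823.9 and 1449.4, 1127.9 and 1119.5, 1422.6 and 835.5, and 881.4 and 1042.0. Its highest and lowest arrays were the 2 replicates of the C57BL/6 carrier group, so its spread lay within a group. Mcm6 read 49.5 to 176.5 on all 8 arrays, under the intensity of 362.7 (the 40th percentile of the table) that a probe set had to pass on at least 2 arrays to be tested, so its level is not resolved.

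Pcna was the brightest of the probe sets, at 2791.3 and 2824.8 in C57BL/6 carrier, 2752.2 and 4832.5 in Ccl3-/- carrier, 3365.8 and 2349.5 in C57BL/6 CCL3, and 3741.2 and 2161.2 in Ccl3-/- CCL3. Brightness of different probe sets does not rank the genes by amount of RNA. The C57BL/6 carrier replicates lay within 1.01-fold of each other, and 1 array, Ccl3-/- carrier replicate 2, set the high mean of its group.

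**Figure D1:**
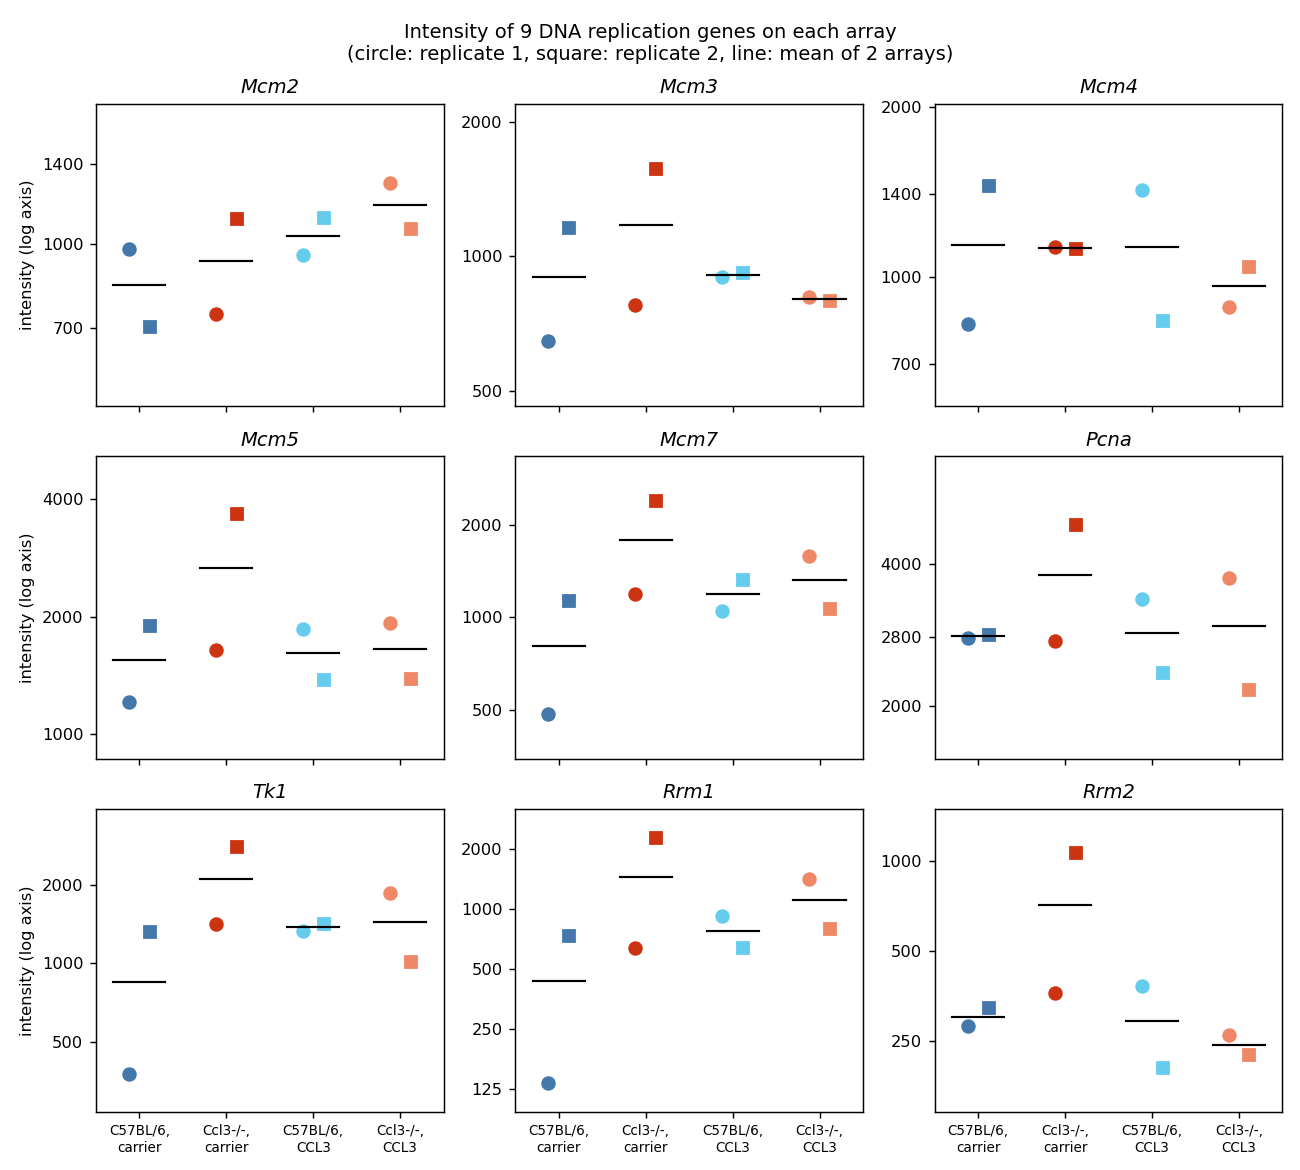
Intensity of each gene's brightest probe set (log axis) in the 4 groups, with circles for replicate 1, squares for replicate 2 and lines for the mean of 2 arrays. Ccl3-/- carrier replicate 2 is the highest array for 7 of the 9 genes over the filter, and C57BL/6 carrier replicate 1 the lowest for 6.

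Of the 9 genes tested, Rrm1 and Tk1, which supply deoxyribonucleotides, spread most between replicates. Rrm1 read 134.6 and 733.7 in C57BL/6 carrier, 640.9 and 2268.1 in Ccl3-/- carrier, 924.5 and 635.7 in C57BL/6 CCL3, and 1425.1 and 799.5 in Ccl3-/- CCL3. It was lowest on C57BL/6 carrier replicate 1 and highest on Ccl3-/- carrier replicate 2, and the 2 carrier groups overlapped. The lowest value, 134.6, lay under the filter and within the range of Mcm6, so the size of the range is not resolved. The SD between replicates, pooled over the groups, was 0.93 on the log2 scale, rank 87 from the highest among the 8150 probe sets tested.

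Tk1 read 378.2 and 1320.4, 1422.6 and 2787.8, 1334.3 and 1423.1, and 1869.6 and 1012.3 in the same order of groups. Its range was 7.37-fold, both Ccl3-/- carrier arrays were above both C57BL/6 carrier arrays, and the group means were 849 ± 666, 2105 ± 965, 1379 ± 62.8 and 1441 ± 606 (SD, n = 2 each). The gap between the nearest arrays of the carrier groups, 1320.4 and 1422.6, was small beside the gaps inside each group. Rrm2 read 280.2 and 323.2, 362.4 and 1066.1, 381.9 and 202.7, and 261.0 and 223.6. It passed 362.7 on 2 arrays only, Ccl3-/- carrier replicate 2 and C57BL/6 CCL3 replicate 1, and it was tested only through them.

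The second probe set of Mcm5 did not track the brighter one, while that of Mcm3 also peaked on Ccl3-/- carrier replicate 2. Over 8 arrays, the log2 values of the brighter and dimmer probe sets correlated at r = 0.53 for Mcm3, -0.74 for Mcm5, -0.03 for Tk1 and 0.23 for Rrm1. The dimmer probe set of Mcm3 read 199.6 to 650.3 and that of Mcm5 read 77.6 to 380.5, with the lowest value of the latter on the array where the brighter one was highest. Those of Tk1 (54.6 to 191.1) and Rrm1 (19.7 to 169.0) stayed below the filter on every array and could not show a pattern. Each result on Mcm5, Tk1 and Rrm1 therefore rests on 1 probe set.

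A pair of arrays shaped the group of genes. Ccl3-/- carrier replicate 2 was the highest array for 7 of the 9 genes tested (Mcm3, Mcm5, Mcm7, Pcna, Tk1, Rrm1 and Rrm2), where 15.6% of all tested probe sets had their highest value. Among the 7, Rrm2 was tested only because it passed the filter on this array and on C57BL/6 CCL3 replicate 1. C57BL/6 carrier replicate 1 was the lowest array for 6 of 9 (Mcm3, Mcm4, Mcm5, Mcm7, Tk1 and Rrm1), against 22.9% of all tested probe sets. The genes' median deviation from their own mean over the arrays was 0.95 (log2) on the first array and -0.45 on the second, while Ccl3-/- CCL3 replicate 1 came next highest at 0.30. In both carrier groups 8 of the 9 genes were higher on replicate 2, as were 53.0% of all tested probe sets in C57BL/6 and 51.4% in Ccl3-/-. The median fold between replicates was 1.76 in C57BL/6 and 2.01 in Ccl3-/-, and 1.39 and 1.28 over all tested probe sets. In the Ccl3-/- CCL3 group 8 of 9 were higher on replicate 1, and in the C57BL/6 CCL3 group 5 were. Of all tested probe sets, 50.8% and 54.8% were higher on replicate 2 in these groups. The median folds were 1.39 and 1.35 there, and 1.18 and 1.22 over all tested probe sets.

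**Figure D2:**
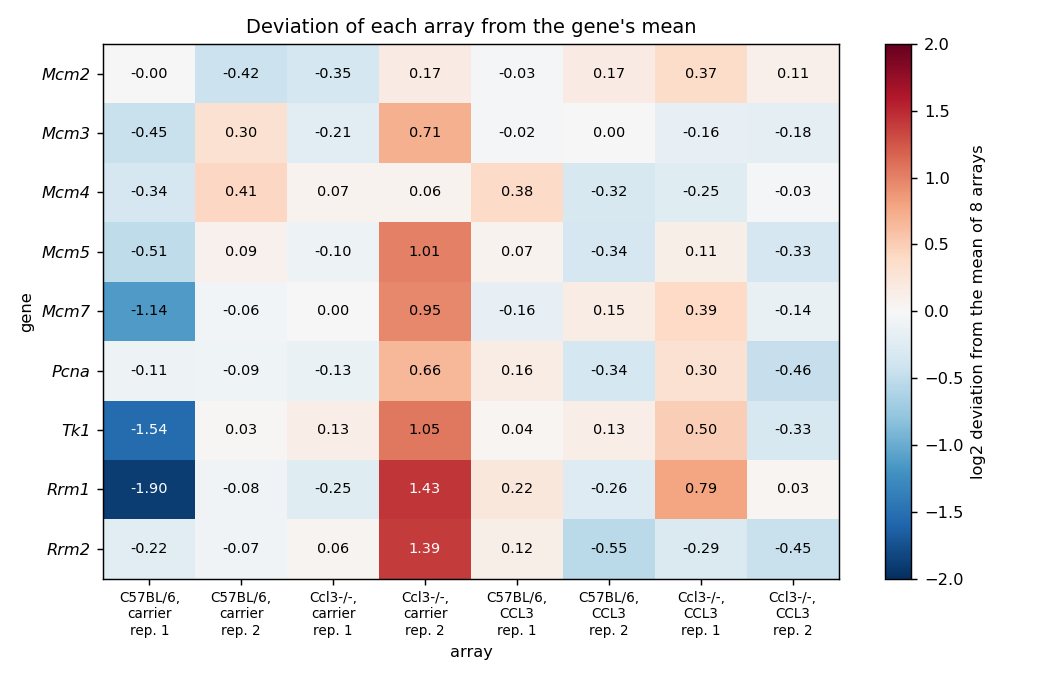
Deviation of each gene (log2, brightest probe set) from its mean over the 8 arrays, in columns by array. Ccl3-/- carrier replicate 2 is above the mean for all 9 genes, from 0.06 (Mcm4) to 1.43 (Rrm1). C57BL/6 carrier replicate 1 is below it for all 9, from -0.0012 (Mcm2) to -1.90 (Rrm1).

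Likeness among the genes also leaned on that pair of arrays. The correlation of each gene with the mean of the other members over 8 arrays was 0.96 for Mcm5, 0.90 for Rrm1, 0.87 for Mcm7, 0.87 for Tk1, 0.83 for Mcm3, 0.76 for Pcna and 0.75 for Rrm2, and only 0.24 for Mcm4 and 0.09 for Mcm2. With both arrays left out it was 0.92 for Pcna, 0.89 for Mcm5, 0.70 for Rrm1 and 0.57 for Tk1, but 0.32 for Rrm2, 0.22 for Mcm7, 0.02 for Mcm3, -0.11 for Mcm4 and -0.27 for Mcm2. These correlations describe values that share arrays and scaling.

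After carrier injection, 9 of the 9 genes tested read higher in the group labelled Ccl3-/- than in C57BL/6, though none passed the test. Of all tested probe sets, 47.9% read higher. The comparison asks how loss of CCL3 bears on these genes after bulbectomy. Differences were fitted with limma to log2(intensity + 102.3), a scale that understates changes of dim probe sets. The largest were 1.58 ± 0.64 for Rrm1 (log2 difference ± SE), 1.34 ± 0.50 for Tk1 and 1.08 ± 0.42 for Mcm7, or 2.98-fold, 2.54-fold and 2.11-fold, with adjusted p of 0.416, 0.404 and 0.412 from limma with Benjamini-Hochberg adjustment. No probe set of any gene passed an adjusted p of 0.05 (0% of 8150 tested), in this or any other of the 7 comparisons. At an unadjusted p under 0.05, 3 of the 9 genes were higher and 0 lower, against 5.03% of all tested probe sets higher and 6.4% lower.

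The other differences were 0.87 ± 0.46 for Rrm2, 0.66 ± 0.39 for Mcm5, 0.37 ± 0.35 for Pcna, 0.32 ± 0.35 for Mcm3, 0.12 ± 0.29 for Mcm2 and 0.03 ± 0.33 for Mcm4. The median over the 9 genes was 0.66, and over all 6181 genes tested it was -0.02. The groups did not overlap for 3 of the 9 genes, Mcm7, Tk1 and Rrm2, which were higher, as were 15.6% of all tested probe sets, and 0 were lower without overlap (22.9%). The dimmer tested probe sets gave 0.38 ± 0.41 for Mcm3 and -0.54 ± 0.53 for Mcm5, the second opposite in sign to the brighter one.

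The size of these differences depended on the carrier arrays used. Without C57BL/6 carrier replicate 1, 7 of 9 genes were higher, 0 at an unadjusted p under 0.05, and the median was 0.36. Without Ccl3-/- carrier replicate 2, 6 of 9 were higher, again 0 past that threshold, and the median was 0.11. With both left out, 1 carrier array stood against 1, and 4 of 9 were higher and the median was -0.036, and Rrm1 went from 1.58 to -0.17, Tk1 from 1.34 to 0.10 and Mcm7 from 1.08 to 0.067. The 2 arrays were picked as the extremes of these same genes, 1 in each group, so leaving out both had to bring the groups closer.

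**Figure D3:**
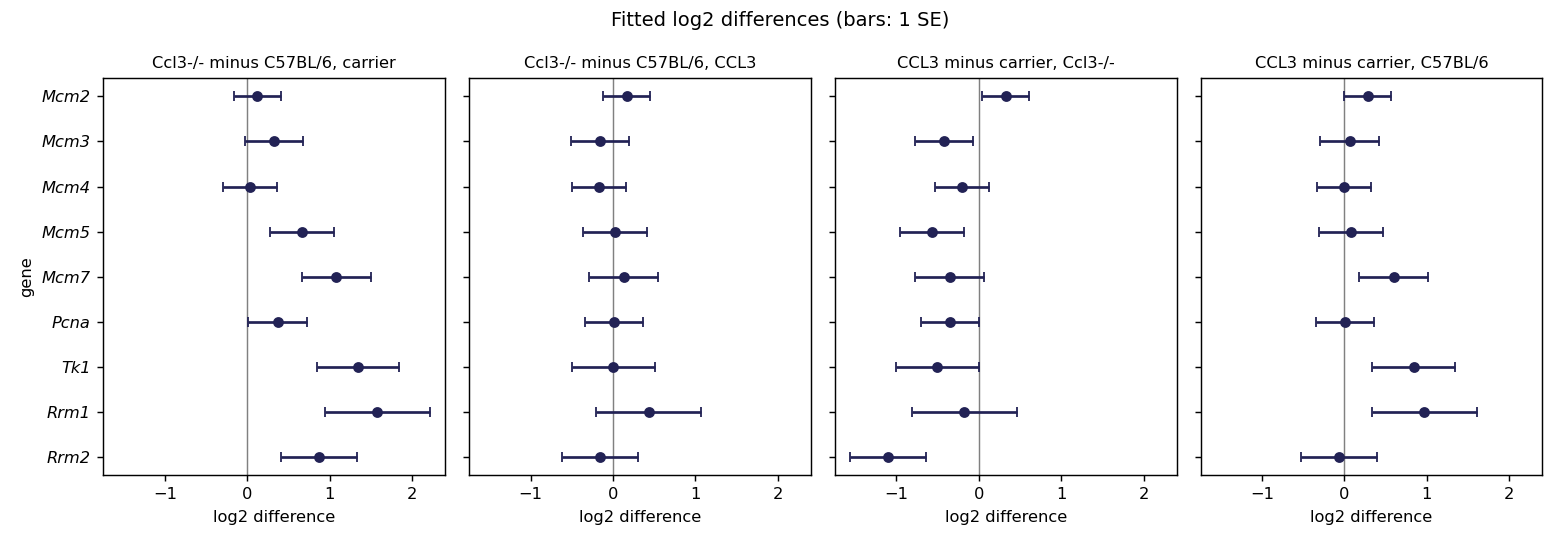
Log2 differences with standard errors for each gene, in the comparisons of genotype after carrier and after CCL3 and of CCL3 with carrier in each genotype. All 9 points lie above 0 for genotype after carrier, from 0.03 (Mcm4) to 1.58 (Rrm1), and 8 of 9 lie below 0 for CCL3 in Ccl3-/- mice.

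After CCL3 injection the differences between the genotypes centred near 0. Their standard errors equal those after carrier by design, since the fit pooled the spread over all groups. On the arrays labelled Ccl3-/-, 6 of 9 genes were higher and 3 lower than in C57BL/6, while 52.8% of all tested probe sets were higher. Of the 9, 0 were past an unadjusted p of 0.05 (1.48% of all tested probe sets), and the median was 0.02 against 0.01 over all genes. Rrm1 gave 0.43 ± 0.64, Tk1 0.00 ± 0.50, Mcm3 -0.16 ± 0.35 and Mcm4 -0.17 ± 0.33. The groups did not overlap for Mcm3, which was lower, as were 12.9% of all tested probe sets, and 0 were higher without overlap (16.5%).

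CCL3 was also set against carrier within each genotype, a comparison that shares its carrier arrays with that of the genotypes after carrier. In the Ccl3-/- groups 8 of 9 genes were lower after CCL3, with a median of -0.35 against 0.03 over all genes, and 1, Rrm2, was past an unadjusted p of 0.05, at -1.10 ± 0.46 with an adjusted p of 0.940 in limma (2.12% of all tested probe sets were lower at that threshold). Tk1 gave -0.50 ± 0.50, Mcm5 -0.56 ± 0.39 and Mcm4 -0.21 ± 0.33, while Mcm2 gave 0.33 ± 0.29, the only positive value. The groups did not overlap for Mcm4 and Rrm2, both lower, against 16% of tested probe sets, and 0 were higher without overlap (22.9%). Without Ccl3-/- carrier replicate 2, Rrm2 gave -0.43, Tk1 -0.041, Mcm5 -0.0071 and Mcm2 0.59, and the median over the genes was 0.038.

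In the C57BL/6 groups most of the genes read higher after CCL3, though none passed the test. In all, 7 of 9 were higher and 2 lower, while 48.2% of all tested probe sets were higher. Of the 9, 0 were past an unadjusted p of 0.05 (4.29% of all tested probe sets), and the median was 0.07 against -0.01 over all genes. Rrm1 gave 0.97 ± 0.64, Tk1 0.84 ± 0.50 and Mcm7 0.59 ± 0.42, and Rrm2 gave -0.07 ± 0.46. Without C57BL/6 carrier replicate 1, Rrm1 was at 0.058 and Tk1 and Mcm7 at 0.057 each, and without replicate 2 they were at 1.88, 1.62 and 1.13. The groups did not overlap for Tk1 alone, which was higher, as were 12% of tested probe sets, and 0 were lower without overlap (18.1%).

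The interaction sets the effect of CCL3 in Ccl3-/- mice against that in C57BL/6 mice. Of all tested probe sets, 52.7% had a positive interaction. It was negative for 8 of 9 genes, with a median of -0.64 against 0.03 over all genes. None was past an unadjusted p of 0.05 (5.06% of all tested probe sets). Tk1 gave -1.34 ± 0.71 with an adjusted p of 0.908 in limma, Rrm1 -1.15 ± 0.90, Rrm2 -1.03 ± 0.65, Mcm7 -0.95 ± 0.59, Mcm5 -0.64 ± 0.55 and Mcm2 0.05 ± 0.40. The median was 0.10 without C57BL/6 carrier replicate 1 and Ccl3-/- carrier replicate 2. A difference between the genotypes in their response to CCL3 was thus not established for any of these genes.

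Averaged over both injections, 8 of 9 genes read higher for Ccl3-/- than for C57BL/6, as did 48.4% of all tested probe sets. Of the 9, 0 were past an unadjusted p of 0.05 (5.93% of all tested probe sets), and the median was 0.35. Rrm1 gave 1.00 ± 0.45 with an adjusted p of 0.808 in limma, Tk1 0.67 ± 0.36, Mcm7 0.61 ± 0.30 and Mcm4 -0.07 ± 0.23. Without C57BL/6 carrier replicate 1, Rrm1 was at 0.55, Tk1 at 0.28 and Mcm7 at 0.34, and without Ccl3-/- carrier replicate 2 they were at 0.59, 0.44 and 0.37. For CCL3 against carrier averaged over both genotypes, 4 were higher and 5 lower, while 51.6% of all tested probe sets were higher. Past the same threshold there were 0 (4.53%), and the median was -0.11. In group means, the Ccl3-/- carrier group was the highest for 8 of 9 genes, the exception being Mcm2, and the C57BL/6 carrier group was the lowest for 6. As no gene passed in any of the 7 comparisons, none of these orders was established beyond the spread between replicates.

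The rest of the replication machinery had a median difference nearer 0, though single genes reached values like those of Tk1 and Mcm7. Of 62 further replication genes (origin recognition, clamp loading, polymerases, primase, single-strand binding and licensing factors), 52 were on the array and 38 were tested. After carrier, 47.9% of all tested probe sets were higher on the arrays labelled Ccl3-/-. Of the 38, 24 were higher and 14 lower there, with a median of 0.13. At an unadjusted p under 0.05, 4 were higher and 0 lower (5.03% and 6.4% of all tested probe sets). The 4 were Rpa3, a subunit of the single-strand binding protein RPA, at 1.31 ± 0.43, Pold2, a subunit of DNA polymerase delta, at 1.11 ± 0.45, the origin recognition subunit Orc6 at 0.86 ± 0.32, and the clamp loader subunit Rfc1 at 0.69 ± 0.29. Rpa3 read 602.5 and 693.9 in C57BL/6 carrier and 2022.5 and 1512.1 in Ccl3-/- carrier, without overlap. With the 2 arrays left out, Rpa3 stood at 1.42, Orc6 at 1.43 and Rfc1 at 0.54, while Pold2 was at 0.16.

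In the interaction, 9 of the 38 were positive and 29 negative, with a median of -0.22, while 52.7% of all tested probe sets were positive. At an unadjusted p under 0.05, 2 were negative (Orc6 at -1.20 ± 0.45 and Orc2 at -1.58 ± 0.60, against 5.06% of all tested probe sets in either direction). After CCL3, 15 were higher and 23 lower on the arrays labelled Ccl3-/-, with a median of -0.03, while 52.8% of all tested probe sets were higher. Past that threshold, 3 were lower (1.48% of all tested probe sets in either direction). No gene of this list passed an adjusted p of 0.05 in any comparison. These genes share arrays and, in part, complexes with the members, and their counts are a description.

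**Figure D4:**
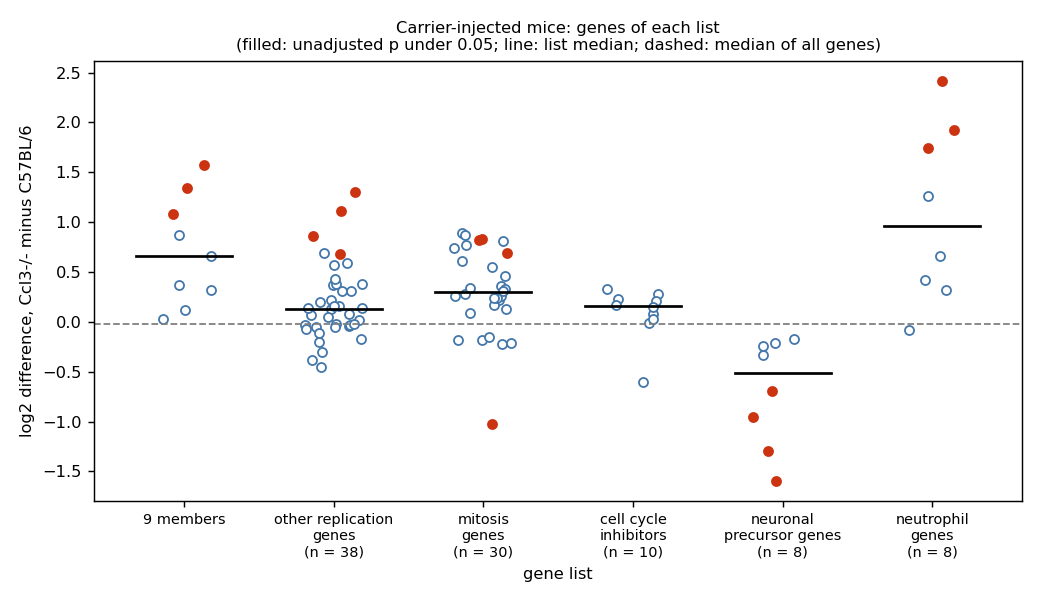
Log2 differences between Ccl3-/- and C57BL/6 after carrier for single genes of each list (points, filled at an unadjusted p under 0.05), with list medians (bars) and the median of all genes (dashed). The medians are 0.66 for the 9 members, 0.13 for 38 further replication genes, 0.30 for 30 mitosis genes, -0.51 for 8 precursor genes, 0.16 for 10 cell cycle inhibitors and 0.96 for 8 neutrophil genes.

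Mitosis genes, which act after replication, were also mostly higher, against 47.9% of all tested probe sets after carrier. Of 41 listed, 34 were on the array and 30 were tested, 24 higher and 6 lower after carrier on the arrays labelled Ccl3-/-, 3 higher and 1 lower at an unadjusted p under 0.05 (5.03% and 6.4% of all tested probe sets), with a median of 0.30. Smc4 and Smc2, the paired subunits of condensin, gave 0.82 ± 0.23 and 0.69 ± 0.30, and the chromatin protein Hmgb2 gave 0.83 ± 0.33. Smc4 read 911.3 and 913.7 in C57BL/6 carrier, 1712.5 and 1662.3 in Ccl3-/- carrier and 813.0 to 938.5 on the 4 CCL3 arrays. Its replicates lay close together in every group, unlike those of Rrm1 or Tk1, yet its adjusted p of 0.375 in limma did not pass. Mki67, the classic proliferation marker, gave -1.02 ± 0.40, at 536.1 and 1267.8 in C57BL/6 carrier and 438.8 and 290.1 in Ccl3-/- carrier. In the interaction, Smc2 gave -1.06 ± 0.42 and Smc4 -0.73 ± 0.33.

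Precursor genes, here those of globose basal cells and young neurons, had lower group means in Ccl3-/- carrier than in C57BL/6 carrier. Of the replication genes, 7 peaked on Ccl3-/- carrier replicate 2. On replicate 1 of that group, Mcm7, Tk1 and Rrm2 also exceeded both C57BL/6 carrier arrays. The tested precursor genes other than Ebf1 and Mybl2 read lower on both Ccl3-/- carrier arrays than on either C57BL/6 carrier array. The same held for 22.9% of all tested probe sets, while the carrier groups overlapped for Ebf1 and Mybl2. Of 9 listed, 8 were on the array and tested, and after carrier all 8 were lower on the arrays labelled Ccl3-/-, 4 at an unadjusted p under 0.05 (6.4% of all tested probe sets), with a median of -0.51. Of all tested probe sets, 47.9% were higher there. Neurod1 gave -1.59 ± 0.35, Sox11 -1.29 ± 0.30, Neurog1 -0.95 ± 0.35 and the transcription factor Hes6 -0.69 ± 0.28. Neurod1, which drives late neuronal precursors, read 515.6 and 959.9 in C57BL/6 carrier, 146.9 and 187.9 in Ccl3-/- carrier, and 394.3 to 467.3 on the 4 CCL3 arrays. Its adjusted p was 0.363 in limma. In the interaction, Neurod1 gave 1.64 ± 0.50 and Sox11 0.98 ± 0.42.

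Markers listed for other cell types also differed between the arrays. The summed intensity of 8 neutrophil markers, all on the array, was 86100 to 96900 in C57BL/6 carrier, 121000 to 173000 in Ccl3-/- carrier, 92200 to 99700 in C57BL/6 CCL3 and 91700 to 110000 in Ccl3-/- CCL3. The sum was mostly Ltf and Lcn2, which set its high value on Ccl3-/- carrier replicate 2. The full sum is not read as neutrophil content, since these 2 came to 94700 on C57BL/6 CCL3 replicate 2, where the others came to 5020. Without them, a sum added after seeing the data, the other 6 markers came to 13800 on that array, against 30200 on Ccl3-/- carrier replicate 1, 34300 and 11600 on the Ccl3-/- CCL3 arrays and 4330 to 11300 on the C57BL/6 arrays. In this smaller sum S100a8 weighed most on Ccl3-/- carrier replicate 1 (17507.3) and Camp on Ccl3-/- CCL3 replicate 1 (17005.3). Of the 8, 7 were higher after carrier on the arrays labelled Ccl3-/-, 3 at an unadjusted p under 0.05 (5.03% of all tested probe sets). Of all tested probe sets, 47.9% were higher there. The granule protein gene Ngp, expressed in immature neutrophils, read 166.4 and 90.7 in C57BL/6 carrier but 1976.5 and 608.7 in Ccl3-/- carrier. After CCL3, Ngp read 127.2 and 71.5 in C57BL/6 and 1947.1 and 848.7 in Ccl3-/-. Of the 8 markers, 6 were higher and 2 lower for Ccl3-/- after CCL3, where 52.8% of all tested probe sets were higher. At an unadjusted p under 0.05, 3 were higher there (1.48% of all tested probe sets in either direction). Within Ccl3-/- carrier, Ngp, S100a8 and S100a9 were higher on replicate 1. The other markers, Camp, Mpo, Elane, Ltf and Lcn2, were higher on replicate 2, with Mpo at 70.8 and 508.5. The part of these cells in the replication genes was not tested.

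The summed precursor markers (8 of 9 on the array) were 13500 to 15700 in C57BL/6 carrier, 7350 to 8370 in Ccl3-/- carrier, 11100 to 13600 in C57BL/6 CCL3 and 10600 to 11100 in Ccl3-/- CCL3. The olfactory neuron markers (6 of 8) spanned 31600 to 39200, 24400 to 53300, 35600 to 48400 and 42100 to 54000 in the same order, lowest on Ccl3-/- carrier replicate 2. Horizontal basal markers (6 of 6) summed to 1590 to 1850, 2770 to 4090, 1720 to 2130 and 1550 to 2150, and only 3 of the 6 passed the filter. T and B cell markers (7 of 8) summed to 1830 to 3030, 1310 to 1360, 1730 to 1730 and 1780 to 1840, but only 2 of the 7, the B cell genes Cd79a and Ms4a1, passed the filter, and the 4 T cell genes read 5.3 to 188.2. Red cell markers (6 of 8) summed to 36500 to 59200, 40800 to 48000, 57600 to 58600 and 85900 to 91000, and macrophage markers (8 of 8) to 22000 to 26600, 28000 to 30500, 27100 to 28500 and 27300 to 30500. No marker was at 0 on any array. The part of these cell types in the replication genes, and that of the high Gapdh ratio on C57BL/6 carrier replicate 1, was not tested.

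**Figure D5:**
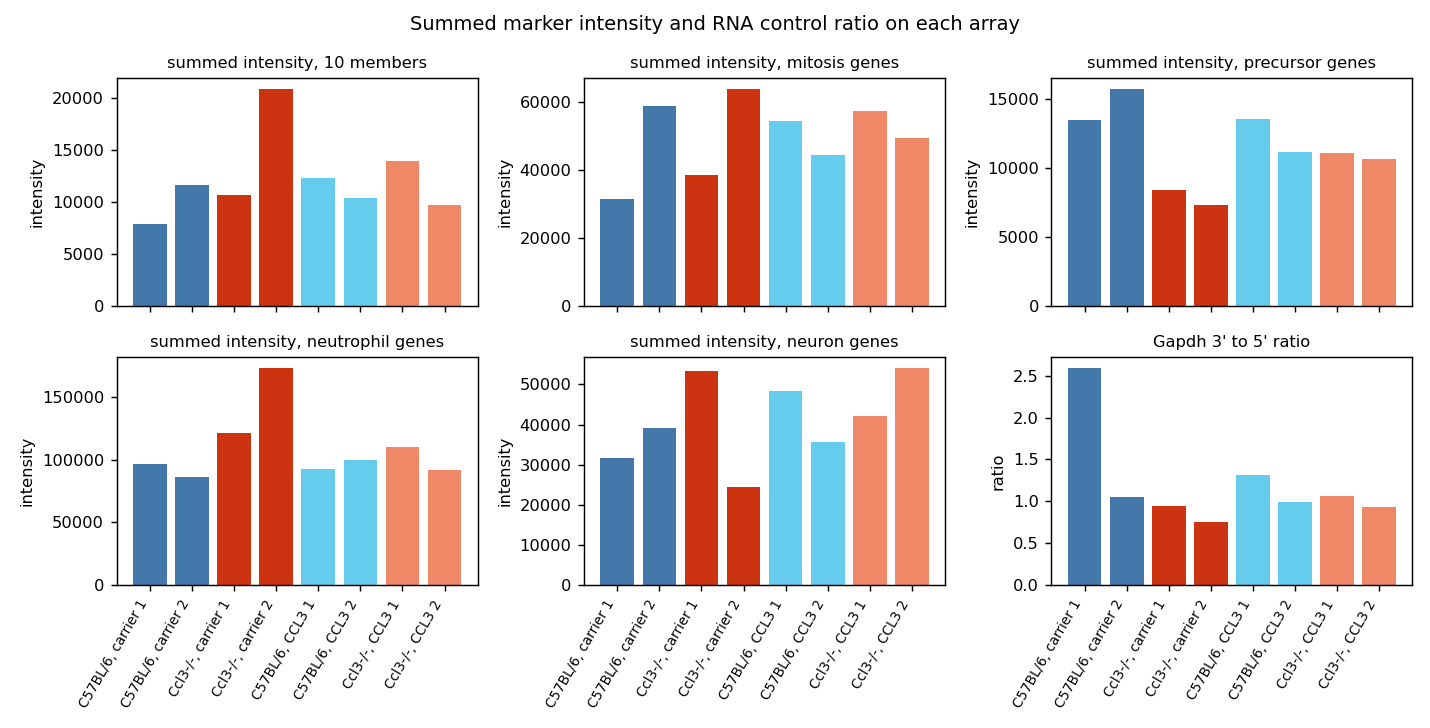
Summed intensities by array for the replication genes and for marker lists, with the Gapdh 3′ to 5′ ratio. Ccl3-/- carrier replicate 2 has the highest sum of replication genes, the highest of neutrophil markers through Ltf and Lcn2, and the lowest of precursor markers, and C57BL/6 carrier replicate 1 has the lowest sum of replication genes and a Gapdh ratio of 2.59.

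The genes most like the members across the 8 arrays, among 6172 other genes, were Birc5 (Pearson r = 0.98 with the mean of the members' standardised values, Spearman rho = 0.91), Plin2 (0.96 and 0.91), Rps7 (0.95 and 0.74), Ptges (0.95 and 0.76) and Ppib (0.95 and 0.81). They were chosen by this measure and no p is given. Birc5, which encodes survivin, a mitotic protein, read 256.3 and 527.0 in C57BL/6 carrier, 349.7 and 1424.1 in Ccl3-/- carrier, 493.5 and 406.2 in C57BL/6 CCL3 and 652.9 and 403.5 in Ccl3-/- CCL3. Without the 2 arrays its r was 0.87, and for Plin2, a lipid droplet protein gene, it was 0.78. For Rps7, a ribosomal protein gene, Ptges, a prostaglandin synthase gene, and Ppib, a cyclophilin gene, it was 0.61 to 0.65.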

How the data were processed

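Total RNA of 8 olfactory mucosa samples was measured on 1 single-colour array each, in 4 groups of 2. The deposited values are intensities on a linear scale, 1 per probe set and array. How the scanner images became these values is not given in the sources used here. By the 2% trimmed mean, arrays matched within 0.00434%, so the authors' deposited intensities had been scaled to a common mean. The platform annotation paired 10855 of 12488 probe sets with 1 symbol, 396 with several and 1237 with none. The 66 control probe sets were left out of the tests.

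Values were transformed as log2(intensity + 102.3), the 20th percentile of the table. A probe set was tested if it passed 362.7, the 40th percentile, on at least 2 arrays, which left 8150 probe sets of 6181 genes. A gene was described by its brightest tested probe set. All 8 arrays entered 1 limma fit (version 3.58.1, R 4.3.3) of group means with an intensity trend, leaving 4 residual degrees of freedom, with 7 comparisons and Benjamini-Hochberg adjustment over 8150 probe sets within each. The fit was tested on simulated data. The number of arrays limits the precision.

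The members and gene lists were chosen with earlier results of these data known. Genes named beside the members were up to 4 per list with the smallest p in the comparison of genotypes after carrier and in the interaction, and the 5 with the highest correlation to the members. Markers named for single cell types were picked after their values were seen. Alternatives changed the normalization, pseudocount, filter, trend, samples in the fit, replicate block and arrays.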

Additional observations from a re-analysis of the deposited data

How the results depend on the processing

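Under the alternatives that kept all carrier arrays (normalization, pseudocount, filter, trend, replicate block, only the groups compared), 9 genes were higher after carrier on the arrays labelled Ccl3-/- and 3 at an unadjusted p under 0.05, except that the 60th-percentile filter left 8 genes, all higher. Dropping the filter added Mcm6, at -0.52 ± 0.28. The replicate block, whose numbers do not pair the samples (correlations of replicate deviations between groups of -0.158 to 0.178, 2 of 6 over 0.1), called 1 probe set for genotype after carrier, 1 for the averaged genotype and 1 for averaged CCL3. A fit of only the groups compared called 1 for genotype after CCL3. None was called in the main analysis.

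Small differences turned sign. For genotype after CCL3, Tk1 gave -0.011 with quantile normalization, -0.034 with 1 median per array and -0.00034 with the 10th-percentile pseudocount. For CCL3 in C57BL/6, Rrm2 gave 0.047 with quantile normalization. In the interaction, Mcm2 gave -0.019 with quantile normalization and -0.030 with 1 median per array.

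Leaving out arrays mattered most. The settings were each array in turn and, chosen after seeing the data, C57BL/6 carrier replicate 1 with Ccl3-/- carrier replicate 2. The counts of genes higher were also added after seeing the data. An arm with 1 array is assumed to vary like the other groups. For genotype after carrier, called probe sets ranged from 0 to 110 (the 110 without C57BL/6 carrier replicate 2), the median of the genes from -0.036 to 1.22, genes higher from 4 to 9 and genes higher at an unadjusted p under 0.05 from 0 to 5. Pcna ranged from -0.036 to 0.76, Mcm5 from -0.19 to 1.22, Mcm4 from -0.34 to 0.40, Mcm2 from -0.14 to 0.38, Mcm3 from -0.51 to 0.79 and Rrm1 from -0.17 to 2.49. For genotype after CCL3, called probe sets ranged from 0 to 1, Tk1 from -0.41 to 0.41 and Mcm4 from -0.52 to 0.18. For CCL3 in Ccl3-/-, called probe sets ranged from 0 to 1 and the median from -0.89 to 0.038. For CCL3 in C57BL/6, called probe sets ranged from 0 to 73 (the 73 without C57BL/6 carrier replicate 2) and Rrm2 from -0.40 to 0.26. In the interaction, the median ranged from -1.20 to 0.10, Mcm5 from -1.20 to 0.22, Mcm7 from -1.49 to 0.064, Mcm2 from -0.21 to 0.31 and Rrm1 from -2.06 to 0.60. Averaged over injections, called probe sets ranged from 0 to 1, Rrm1 from 0.13 to 1.46, Tk1 from 0.051 to 1.06, Mcm7 from 0.099 to 0.87 and Mcm4 from -0.26 to 0.12. Averaged over genotypes, called probe sets ranged from 0 to 23. The causes were not tested. Dim signal limits Mcm6, Rrm2, the second probe sets and Rrm1 on C57BL/6 carrier replicate 1.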

Other observations

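Cell cycle inhibitors showed small differences. All 13 listed were on the array and 10 were tested. After carrier, 8 were higher and 2 lower on the arrays labelled Ccl3-/-, where 47.9% of all tested probe sets were higher, and the median was 0.16. At an unadjusted p under 0.05 there were 0, against 5.03% of all tested probe sets higher and 6.4% lower. Cdkn1c, the gene of the inhibitor p57, had the difference farthest from 0 in that comparison, at -0.60 ± 0.31, and Cdkn1a, the gene of p21, gave 0.21 ± 0.34. These 2 genes were named after their values were seen. For CCL3 in Ccl3-/- mice, 1 was higher and 9 lower, with a median of -0.16, while 54% of all tested probe sets were higher.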
